A study of Mus musculus with 9 samples.

Results

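The comparison described here set tumours of the metastasis-derived LM1 model against tumours of its parent, the HR1 model, across all genes counted. It compared 6 of the 9 tumours of the series, 3 HR1 and 3 LM1, chosen by their labels and by no measured value. All 9 were fitted together, so the tumours of LM9, another metastasis-derived line, also entered the estimate of the spread behind each p-value. HR1 is a mouse mammary cancer line, sorted for GFP, from a mouse that carried a mutant *PIK3CA* transgene under the ubiquitous CAG promoter, and it is described as non-metastatic. LM1 is a line grown out of a lung metastasis that formed in a NOD/SCID mouse from HR1 cells carrying a *piggyBac* transposon, so each model stands for a single line and LM1 differs from HR1 by selection in the lung as well as by the transposon. Every tumour came from 250000 cells placed in the mammary fat pad of a female NOD/SCID mouse aged 4 to 8 weeks, was taken before it reached 1500 mm3, and was sorted for GFP-positive cells before RNA was made. The PI3K mutation, the GFP label and the immunodeficient host are therefore common to both groups. NOD/SCID mice lack mature B and T cells but keep macrophages, vessels and fibroblasts, which can enter a sorted sample in small numbers. The labels number the tumours from 1 to 3 in each model and name no shared mouse or day. The p-values thus measure the spread between the fitted tumours only.

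The series was made to study NFIB, a transcription factor of the nuclear factor I family. NFI proteins bind DNA as dimers at the palindrome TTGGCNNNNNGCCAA and help to keep distant enhancers accessible, NFIB is needed for lung maturation, and its gene is amplified in small cell lung cancer. Of the other genes the study names, *Foxp1* encodes a forkhead repressor, *Ero1l* (listed by its newer symbol *Ero1a*) the oxidase that drives disulphide formation in the endoplasmic reticulum, and *Vegfa* the main angiogenic growth factor. The HR1 model is classed as *Nfib* low-expression and LM1 as *Nfib* high-expression.

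Total counts on genes lay between 32393958 and 45956132 in the 6 tumours, and values are given as CPM, counts scaled to the library total after TMM normalization. The 8 mammary epithelial markers tested summed to 48.8, 65.4 and 149.6 CPM in HR1 and 205, 182 and 198 CPM in LM1, most of it from *Krt14* in HR1 replicate 3 and in LM1. *Cdh1*, which encodes E-cadherin, lay at 1.20, 0.630 and 0.540 CPM in HR1 replicates 1, 2 and 3 and at 0.945, 0.657 and 0.864 CPM in LM1 replicates 1, 2 and 3, and all values in this text follow that order of replicates. *Epcam*, another epithelial surface protein, was at or under 4.49 CPM in each. The stromal collagen gene *Col1a1* had 12669.7, 7033 and 11022 CPM in HR1 and 7467, 9245 and 6359 CPM in LM1. *Cdh1* and *Epcam* were thus low in both groups while *Col1a1* was not.

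LM1 and HR1 tumours differed in a large part of the transcriptome. Of 14086 genes tested, 4994 had an adjusted p under 0.05 by edgeR's quasi-likelihood test, which is 35.5% of the genes, with 2358 (16.7%) higher and 2636 (18.7%) lower in LM1. Of these, 1429 were at least 2-fold higher and 1657 at least 2-fold lower, and 260 and 228 changed by a log2 fold change of 4 or more in the respective direction. Which direction held more genes depended on the scaling and the tool, with 2674 higher and 2329 lower by library size only and 2768 higher and 2308 lower by limma-voom. The median log2 fold change of all genes, which the scaling sets near 0, was −0.04. In 45.6% of the genes every LM1 tumour lay on the same side of every HR1 tumour. A fit of the 6 LM1 and HR1 tumours alone, without LM9, called 3010 genes, 1396 higher and 1614 lower. The counts depended on single tumours: without LM1 replicate 1 3121 genes were called, without LM1 replicate 2 3278, and without HR1 replicate 1 7453 of 14107 (52.8%, of which 26.9% of genes higher and 26.0% lower). In the plot of change against mean level, the arc of points at the upper left holds genes with few or no reads in HR1, whose fitted change depends on the prior count and is no measure of size.

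**Figure D1:**
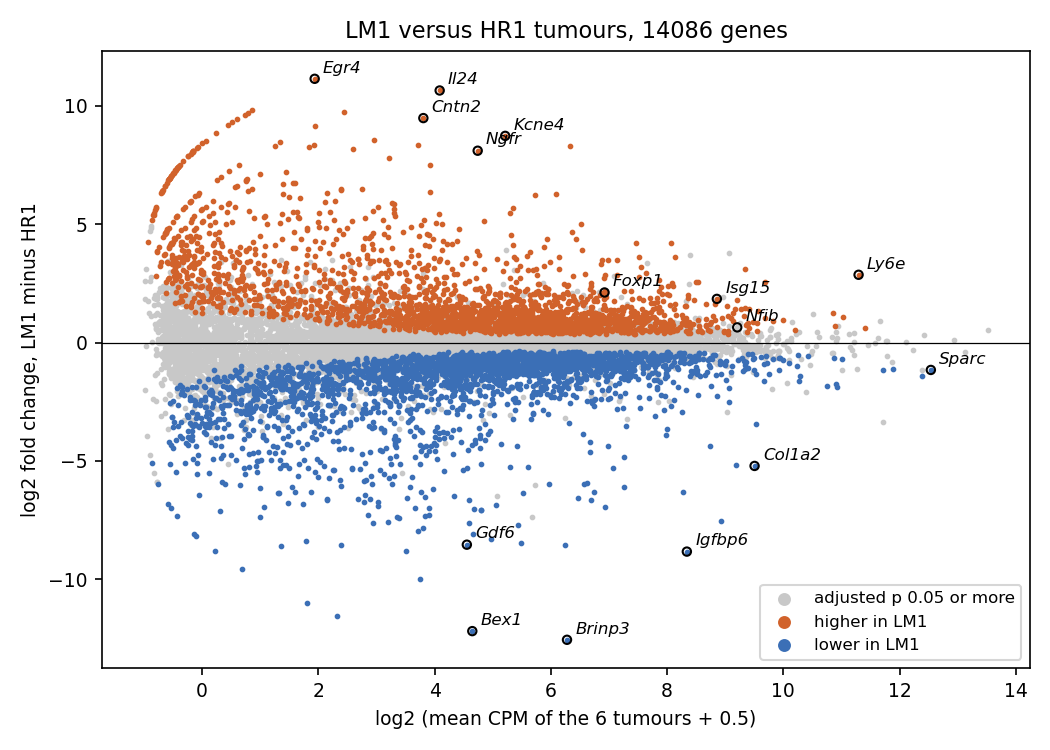
Log2 fold change (LM1 minus HR1, edgeR) against log2 of the mean CPM of the 6 tumours plus 0.5, one point per gene, for 14086 genes; orange and blue points have an adjusted p under 0.05. Named genes are circled, *Kcne4* at 8.72 and *Gdf6* at −8.54 among them, and *Nfib* lies at 0.64 among the grey points.

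*Nfib* did not pass the test, and its HR1 values lay far apart. It was counted at 1343, 23.9 and 18.3 CPM in HR1 and 786, 791 and 579 CPM in LM1. HR1 replicates 2 and 3 were far under every LM1 tumour and HR1 replicate 1 was above every one. The log2 fold change was 0.64 (standard error 1.29, edgeR adjusted p = 0.728; two-sided exact permutation p = 0.5), and without HR1 replicate 1 it was 5.10 (standard error 0.25, edgeR adjusted p = 7.6e-07). The tumour labelled HR1 replicate 1 thus goes against the class given to its model, and every direction drawn against HR1 below rests in part on it. Whether this sample was switched or mixed was not tested.

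*Foxp1* rose in LM1 with and without that tumour. The gene (chromosome 6, 98925342 to 99522746, GRCm38) had 34.2, 48.2 and 53.7 CPM in HR1 and 205, 238 and 147 CPM in LM1. Each LM1 tumour was above each HR1 tumour. Its log2 fold change was 2.11 (standard error 0.24, edgeR adjusted p = 4.4e-04), and 1.95 without HR1 replicate 1 (edgeR adjusted p = 7.5e-05). *Ero1l* had 37.2, 65.7 and 72.3 CPM in HR1 and 111, 131 and 132 CPM in LM1, again without overlap, with a log2 fold change of 1.09 (standard error 0.26, edgeR adjusted p = 0.0125). *Vegfa* had 40.3, 127 and 126 CPM in HR1 and 203, 314 and 218 CPM in LM1, and its log2 fold change of 1.32 (standard error 0.41, edgeR adjusted p = 0.0338) was 0.96 (edgeR adjusted p = 0.00641) without HR1 replicate 1, which had the lowest value of the 6. For *Foxp1*, *Ero1l* and *Vegfa* a two-sided exact permutation test of 3 against 3 tumours gave p = 0.1, the smallest it can give. The other NFI genes *Nfia*, *Nfic* and *Nfix*, which bind the same palindrome, were not called, with log2 fold changes of 0.94, 0.30 and 0.45. Without HR1 replicate 1 *Nfia* was called higher (2.13, edgeR adjusted p = 0.00177) and *Nfic* and *Nfix* were not. The palindrome was found in the 250 bases upstream of the start site in 1 of 1842 genes called higher and 1 of 2064 called lower that had a sequence, and in 5 of 11094 (0.0451%) of all genes.

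**Figure D2:**
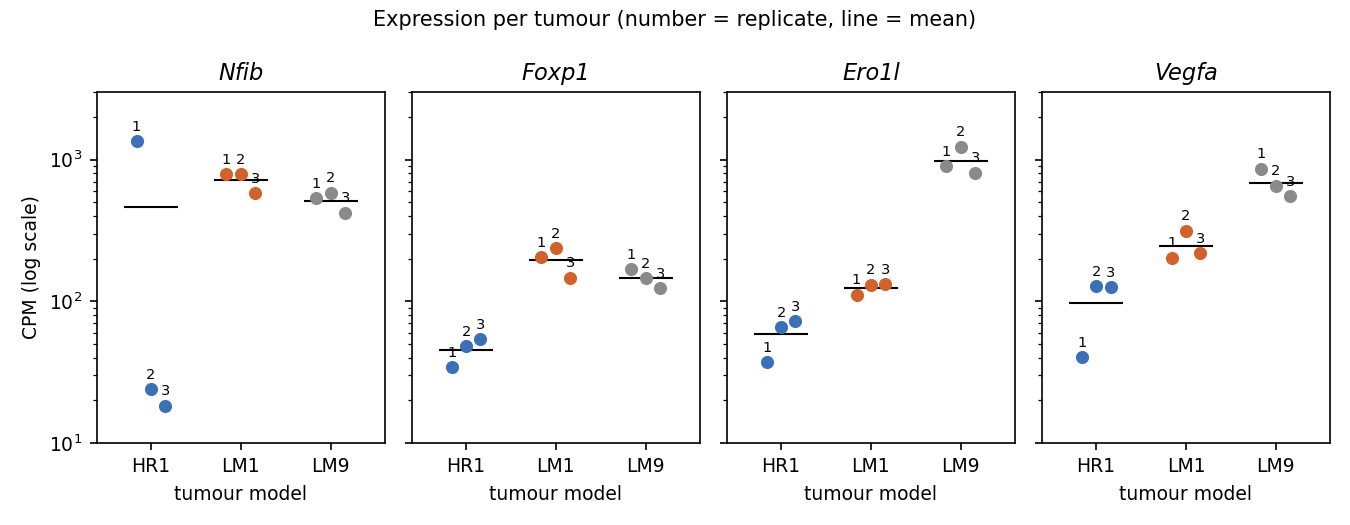
CPM on a log axis in each tumour of HR1, LM1 and, for reference, LM9, for *Nfib*, *Foxp1*, *Ero1l* and *Vegfa*; numbers mark replicates and lines the group means. HR1 replicate 1 is the highest of all tumours for *Nfib* at 1343 CPM and the lowest for *Ero1l* and *Vegfa* at 37.2 and 40.3 CPM.

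The tumour labelled HR1 replicate 1 stood apart from the other HR1 tumours across the transcriptome. Pearson's r of log2 CPM over 14086 genes, which are not independent replicates, was 0.891 and 0.878 between it and HR1 replicates 2 and 3, 0.961 between those, and 0.986 to 0.991 among LM1 tumours. Between HR1 replicate 1 and LM1 it lay between 0.849 and 0.857, beside 0.868 to 0.872 between HR1 replicates 2 and 3 and LM1. By this measure HR1 replicate 1 was nearer to its own model than to LM1, and no nearer to LM1 than the other HR1 tumours. Of 12251 genes averaging 1 CPM or more in HR1, 775 were at least 4-fold away from both other HR1 tumours in HR1 replicate 1, against 90 in replicate 2 and 106 in replicate 3. In LM1 no tumour had such a gene.

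The genes highest in HR1 replicate 1 over the others belong to several tissues. *Crym*, which encodes a thyroid hormone binding protein, had 303, 0.0901 and 0.0772 CPM in HR1. The cartilage genes *Col2a1* and *Matn4* had 86.3, 0.135 and 0.0772 and 205, 1.49 and 1.24 CPM, and the glial and cartilage calcium binding protein gene *S100b* had 308, 0.383 and 0.592 CPM. In LM1 *Crym*, *Col2a1* and *S100b* stayed at or under 1.81 CPM, nearer to HR1 replicates 2 and 3. *Rbp4*, which carries retinol in blood, behaved otherwise: it had 620.1, 4.01 and 0.360 CPM in HR1 and 843, 665 and 867 CPM in LM1, so HR1 replicate 1 was close to LM1. *Cplx2* and *Lingo1*, a synaptic and a neuronal membrane protein, were at 172, 1.10 and 0.103 and 171, 1.10 and 0.154 CPM in HR1, and their LM1 values of 62.2, 56.7 and 47.1 and 37.1, 36.7 and 37.0 CPM lay between. *4930550L24Rik*, an X-linked gene of unknown role, completes the 8 with 196, 0.248 and 0.103 CPM.

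The genes lowest in HR1 replicate 1 include secreted and surface proteins of stroma and epithelium. *Spp1*, which encodes osteopontin, had 6.58, 666 and 2099 CPM in HR1 and 133, 110.5 and 119.6 CPM in LM1. The mesothelial surface antigen gene *Msln* had 1.66, 319 and 367 CPM and the ligand gene *Wnt7b* 1.20, 176 and 306 CPM in HR1, with 135, 141 and 132 and 54.8, 47.7 and 60.3 CPM in LM1. *Il1rl1*, the receptor of interleukin 33, had 5.89, 439 and 1438 CPM in HR1 and 489.9, 557 and 674 CPM in LM1, so that LM1 overlapped with replicates 2 and 3. *Cthrc1*, a secreted collagen triple helix protein of activated fibroblasts, had 0.565, 144 and 121 CPM in HR1 and 0.168, 0.227 and 0.356 CPM in LM1, and here HR1 replicate 1 was next to LM1. *Dynap*, *Ppef1* and *Lrrc15* followed with at most 1.93 CPM in HR1 replicate 1 and at least 44.1 CPM in the other HR1 tumours. No test was made for a single tumour within a group of 3.

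To place that tumour, genes were called without it and its log2 CPM was set on a scale where 0 is the mean of HR1 replicates 2 and 3 and 1 is the mean of LM1. Over 7444 genes its median position was 0.300. It was under 0.25 for 47.5% of the genes, between 0.25 and 0.75 for 22.0%, and at 0.75 or more, close to LM1 or past it, for 30.5%. The same measure gave 8.45% at 0.75 or more for HR1 replicate 2 and 13.5% for replicate 3, each over the genes called without that tumour. Under 0, on the side away from LM1, were 34.8% for replicate 1, 39.5% for replicate 2 and 35.8% for replicate 3. The genes for replicates 2 and 3 had to pass with HR1 replicate 1 among the HR1 tumours. Their shares are therefore not directly comparable with those for replicate 1. For most genes that separate the models HR1 replicate 1 thus did not reach the LM1 level, and for a part of them it did. Of the 4994 genes called with all tumours, 4887 (97.9%) were called in the same direction without it, and 0 in the opposite direction. A further 2557 were called only without it, 1447 higher and 1110 lower in LM1.

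**Figure D3:**
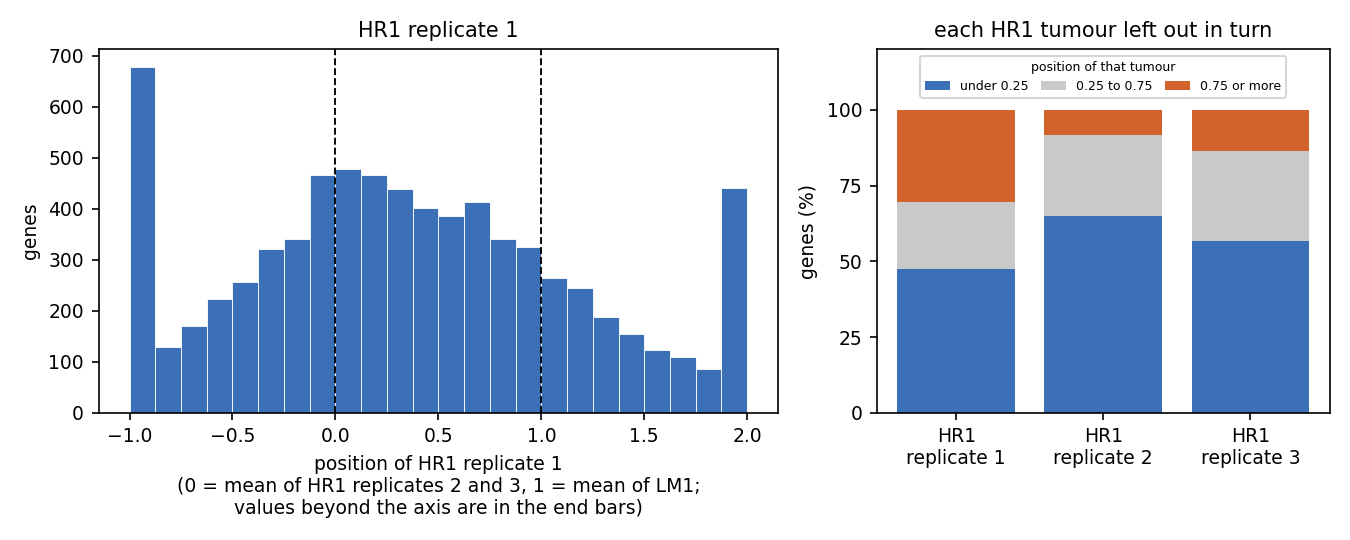
Left, number of genes by position of HR1 replicate 1 between the other HR1 tumours (0) and LM1 (1) on the log2 CPM scale, with values beyond the axis in the end bars; right, share of genes in 3 ranges of that position for each HR1 tumour, over genes called without it, so that the sets of genes differ. At 0.75 or more were 30.5% of the genes for replicate 1, 8.45% for replicate 2 and 13.5% for replicate 3.

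The largest increases in LM1 were in genes close to silent in HR1. *Il24*, a cytokine gene of the interleukin 10 family on chromosome 1, had 0.0332, 0.0225 and 0 CPM in HR1 and 36.1, 27.2 and 35.6 CPM in LM1. Its ratio over the summed counts was 1868 (95% counting interval 517 to 15430.4). *Kcne4*, an accessory subunit of voltage-gated potassium channels, rose from 0.0332, 0.405 and 0.0257 CPM to 64.8, 77.3 and 77.3 CPM, with a log2 fold change of 8.72 (standard error 0.64, edgeR adjusted p = 1.0e-04). *Cntn2*, a neuronal adhesion protein, rose from 0.0332, 0.0675 and 0 to 24.9, 34.7 and 21.2 CPM. These genes and the 12 largest decreases were taken from called genes whose groups did not overlap, so neither the call nor the separation is a result for them.

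*Egr4*, a zinc finger gene of the immediate-early class, was counted at 0 in each HR1 tumour and at 7.46, 8.25 and 4.27 CPM in LM1, at least 81.7-fold higher against a floor of 3 counts per library. On the same floor *Vsig8* was at least 32.3-fold, the transglutaminase gene *Tgm5* at least 30.3-fold, the pregnancy-specific glycoprotein gene *Psg18* at least 28.7-fold and the Polycomb gene *Scml2* at least 25.1-fold higher. *Psg18* belongs to a family of near-identical copies, so its reads are uncertain. *Lrat*, which esterifies retinol, had 1 count in HR1 and 10.6, 9.31 and 9.65 CPM in LM1, a ratio of 1122 (95% counting interval 201 to 44353). *Lgi2* and *Gpat2* also had 1 HR1 count each, with 6.74, 6.14 and 7.14 and 3.70, 3.83 and 4.67 CPM in LM1. *Gm773*, an X-linked predicted gene, had 0.0997, 0.0225 and 0 CPM in HR1 and 14.3, 12.5 and 16.8 CPM in LM1.

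The largest fitted decrease was that of *Brinp3*. This gene, which slows the cell cycle of neural cells, had 37.3, 163 and 263 CPM in HR1 and 0.0630, 0 and 0 CPM in LM1. Only 3 counts remained over the LM1 tumours, a ratio of HR1 to LM1 of 7152 (95% counting interval 2447 to 34684). *Bex1*, an X-linked adaptor of neurotrophin signalling, had 54.5, 49.2 and 43.8 CPM in HR1 and 1 count in LM1. HR1 replicate 1 was the lowest HR1 tumour for *Brinp3* and the highest for *Bex1*.

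*Gdf6*, a BMP family ligand of joint and skull development, had 47.5, 36.3 and 53.8 CPM in HR1 and 0.189, 0.0906 and 0.0762 CPM in LM1 (log2 fold change −8.54). *Igfbp6*, which binds insulin-like growth factor 2, had 22.3, 612 and 1302 CPM in HR1 and 1.85, 1.18 and 1.22 CPM in LM1, so that the HR1 tumours themselves spanned a wide range. *Smoc2*, a matricellular calcium binding protein, fell from 22.7, 295 and 131 to 0.504, 0.362 and 0.305 CPM. The fibrillar collagen gene *Col11a1* fell from 11.6, 35.6 and 18.0 to 0.0630, 0.0680 and 0 CPM, and the prostaglandin F receptor gene *Ptgfr* from 11.0, 11.7 and 5.53 to 0.0630, 0 and 0 CPM.

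In the other large decreases 1 HR1 tumour was well above the rest. *Tdrd9*, a germline RNA helicase, had 0.266, 25.6 and 1.08 CPM in HR1 and 0 counts in LM1, at least 130.0-fold lower. *Col26a1* had 0.332, 1.01 and 76.1 CPM in HR1, with replicate 3 far above the others, and 0.0630, 0 and 0 CPM in LM1. The GABA receptor subunit gene *Gabrd* had 11.2, 0.315 and 0.798 CPM in HR1, with replicate 1 highest, and 1 count in LM1. The stromelysin gene *Mmp10* had 0.997, 4.48 and 12.6 CPM in HR1 and 0 counts in LM1, at least 87.1-fold lower. The non-coding gene *9330117O12Rik* had 5.09, 0.743 and 0.875 CPM in HR1 and 0 counts in LM1, at least 32.4-fold lower.

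Among the most counted genes that changed at least 2-fold, *Ly6e*, an interferon-inducible surface protein, rose and matrix genes fell. *Ly6e* had 376, 829 and 619 CPM in HR1 and 4622, 3959 and 4660.2 CPM in LM1 (log2 fold change 2.86, standard error 0.27, edgeR adjusted p = 2.5e-04). *Ndrg1*, a stress and hypoxia gene, rose from 1169.8, 1487 and 1335 to 2525, 2735 and 3233 CPM. *Sparc*, the collagen binding osteonectin, had 10367, 7803 and 6466 CPM in HR1 and 3591, 3845 and 3604 CPM in LM1 (log2 fold change −1.16, standard error 0.18, edgeR adjusted p = 0.00199). *Psap*, the precursor of lysosomal saposins, fell from 2461, 3886 and 2850.5 to 785, 898 and 813 CPM, and the ferritin heavy chain gene *Fth1* from 6352, 3737 and 3829 to 2135, 1784 and 2328 CPM. None of these 5 overlapped between the groups. *Fn1*, which encodes fibronectin, was called lower (log2 fold change −1.73, edgeR adjusted p = 0.0233) but did overlap, because HR1 replicate 1 had 906 CPM beside 811, 1135 and 702 CPM in LM1.

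Interferon-stimulated genes rose together. For this list and those below, counts without HR1 replicate 1 stand beside 26.9% higher and 26.0% lower of all genes in that fit. Type I interferons switch on antiviral genes, many of which carry the interferon-stimulated response element (ISRE) in their promoters. Of 35 such genes tested, 30 were called higher and 0 lower in LM1 (85.7% higher and 0% lower beside 16.7% and 18.7% of all genes, and 34 higher and 0 lower without HR1 replicate 1), with a median log2 fold change of 1.47 beside −0.04 for all genes. *Oas2*, which makes the 2′-5′ oligoadenylates that activate RNase L, had 2.03, 6.19 and 10.2 CPM in HR1 and 71.3, 82.2 and 73.9 CPM in LM1 (log2 fold change 3.62, standard error 0.50, edgeR adjusted p = 0.00112). *Zbp1*, a sensor of Z-form nucleic acid, rose from 35.8, 29.7 and 22.6 to 241, 189 and 209.8 CPM. *Mx1*, an antiviral GTPase, rose from 2.29, 9.61 and 6.43 to 27.0, 34.8 and 24.8 CPM. The ubiquitin-like modifier gene *Isg15* rose from 275, 159 and 172 to 790.2, 657 and 724 CPM and *Ifit1*, which binds viral RNA caps, from 31.5, 36.4 and 67.6 to 149, 162 and 128 CPM. In each of these genes the LM1 tumours lay close together and above every HR1 tumour, HR1 replicate 1 included. The interferon regulatory factor genes *Irf9* and *Irf7* had log2 fold changes of 1.14 and 1.78. The members not called were *Oas3*, *Cmpk2*, *Ifi27*, *Gbp2* and *Gbp7*. The Oas, Ifit and Gbp families hold near-identical copies, so single members are less certain than the list.

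To show what these promoters hold, the 250 bases upstream of each RefSeq start site (GRCm38.p6) were searched on both strands for the ISRE core GAAANNGAAA. It was found in 13 of the 26 listed genes that had a sequence (50.0%), in 363 of 11094 of all genes tested (3.27%), in 4.34% of those called higher and in 2.52% of those called lower. Windows of 4 called members follow, each 5′ to 3′ on the gene's strand with the core, read on either strand, in capitals and overlapping matches joined.
*Oas1a*, chr5:120907526-120907584, minus strand: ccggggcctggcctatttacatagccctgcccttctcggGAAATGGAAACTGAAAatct
*Rsad2*, chr12:26456518-26456617, minus strand: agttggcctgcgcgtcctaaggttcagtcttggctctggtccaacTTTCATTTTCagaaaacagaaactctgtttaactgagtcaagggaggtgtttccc
*Isg15*, chr4:156200830-156200929, minus strand: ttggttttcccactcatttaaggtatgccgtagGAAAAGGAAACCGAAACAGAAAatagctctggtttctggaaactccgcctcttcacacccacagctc
*Ifit1*, chr19:34640759-34640858, plus strand: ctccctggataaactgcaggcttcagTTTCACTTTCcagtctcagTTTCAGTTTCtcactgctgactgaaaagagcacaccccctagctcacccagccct

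Genes of MHC class I presentation, the pathway that loads cytosolic peptides onto class I molecules, were called higher for the most part. Of 21 tested, 13 were called higher and 1 lower (61.9% higher and 4.76% lower beside 16.7% and 18.7% of all genes, and 16 higher and 2 lower without HR1 replicate 1), with a median log2 fold change of 1.07. *B2m*, the light chain of every class I molecule, had 1305, 1101 and 925 CPM in HR1 and 2845, 2202 and 2761 CPM in LM1 (log2 fold change 1.23, standard error 0.18, edgeR adjusted p = 0.00131). The classical heavy chain genes *H2-K1* and *H2-D1* had log2 fold changes of 1.25 and 1.44, the peptide pump gene *Tap1* of 0.96, and the immunoproteasome gene *Psmb8* of 1.61. *H2-Q7*, *H2-Q4* and *H2-Q6* had the largest changes, 2.73, 1.92 and 1.88, and are near-identical copies whose reads may be shared. The exception was *Pdia3*, a disulphide isomerase of the loading complex that also serves protein folding in general, at −0.58. The transactivator gene *Nlrc5* was not called.

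Cell cycle genes were called higher in LM1 for the most part. Of 42 tested, 31 were called higher and 0 lower (73.8% higher and 0% lower beside 16.7% and 18.7% of all genes, and 35 higher and 2 lower without HR1 replicate 1), with a median log2 fold change of 1.27. *Plk1*, a mitotic kinase, had 29.8, 28.6 and 41.6 CPM in HR1 and 162, 165 and 191 CPM in LM1 (log2 fold change 2.37, standard error 0.17, edgeR adjusted p = 1.0e-04). *Top2a*, the topoisomerase that untangles chromosomes, rose from 86.0, 76.3 and 121 to 396, 446 and 326 CPM. The proliferation antigen gene *Mki67* had 17.7, 11.4 and 17.7 CPM in HR1 and 86.2, 95.6 and 30.4 CPM in LM1, where replicate 3 was well under the other LM1 tumours but above each HR1 tumour. *Cdk1*, the mitotic cyclin-dependent kinase, had a log2 fold change of 1.43, *Ccnd1*, which encodes cyclin D1, of 1.43, and the replication helicase gene *Mcm5* of 1.89. The 11 members not called included the inhibitors *Cdkn1a*, *Cdkn1b*, *Cdkn2a*, *Cdkn2b* and *Cdkn2c* and, among promoters of division, *E2f1* and *Mybl2*.

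Late cell cycle promoters often hold the cell cycle genes homology region (CHR), TTTGAA, bound by MuvB complexes near the start site. The letters were found within 250 bases upstream, on either strand, in 9 of 33 listed genes with a sequence (27.3%), in 1437 of 11094 of all genes (13.0%), and in 14.3% of those called higher. The share is thus above that of all genes for the list but hardly for the called genes at large, and a match is no proof of binding. Windows of 3 called members follow, printed up to the start site or 45 bases past the match, with the match in capitals.
*Mki67*, chr7:135716427-135716522, minus strand: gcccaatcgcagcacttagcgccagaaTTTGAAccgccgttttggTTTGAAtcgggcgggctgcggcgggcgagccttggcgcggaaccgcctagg
*Top2a*, chr11:99024190-99024257, minus strand: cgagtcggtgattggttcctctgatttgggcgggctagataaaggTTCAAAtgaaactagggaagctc
*Cdk1*, chr10:69352913-69352972, minus strand: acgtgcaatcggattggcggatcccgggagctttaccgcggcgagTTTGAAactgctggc

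Immediate-early genes, which are transcribed within minutes of a mitogenic or stress signal and also during tissue handling, were called higher in part. Of the 20 immediate-early and heat-shock genes, 11 were called higher and 1 lower (55% higher and 5% lower beside 16.7% and 18.7% of all genes, and 13 higher and 2 lower without HR1 replicate 1), with a median of 1.17. *Nr4a1* had 30.0, 19.1 and 33.6 CPM in HR1 and 327, 457 and 229.9 CPM in LM1 (log2 fold change 3.62, standard error 0.41, edgeR adjusted p = 4.7e-04). *Egr1* had 310.2, 164 and 194 CPM in HR1 and 690.5, 912 and 436 CPM in LM1, and *Fos* 698, 296 and 289.9 CPM in HR1 and 1081, 1267 and 883 CPM in LM1. In all 3 genes LM1 replicate 2 was the highest tumour and replicate 3 the lowest LM1 tumour, and no tumours overlapped. *Jun*, *Dusp1*, *Hspa1a* and *Hspa1b* were not called, and *Jund* was lower (−0.79). The zinc finger genes *Egr3* and *Egr2* rose with them, by 3.40 and 2.26 on the log2 scale. Time between resection and RNA is not in the labels, and the part of handling in these values was not tested.

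Of 22 collagen genes tested, 11 were called lower in LM1 (50.0%, beside 18.7% of all genes), 1 higher and 10 not called (14 lower and 2 higher without HR1 replicate 1), with a median log2 fold change of −0.93. *Col3a1*, a fibrillar collagen of soft tissue, had 3338, 12048 and 7919.6 CPM in HR1 and 2790.1, 3285 and 2568 CPM in LM1 (log2 fold change −1.43, standard error 0.42, edgeR adjusted p = 0.0283). *Col1a2* had 44.2, 1472 and 2725 CPM in HR1 and 39.0, 40.5 and 35.0 CPM in LM1, so HR1 replicate 1 was almost at the LM1 level. Its partner in type I collagen, *Col1a1*, was not called (−0.41). The basement membrane genes *Col4a1* and *Col4a2*, transcribed from a shared promoter, had 8.11, 86.5 and 13.9 and 9.38, 111 and 13.6 CPM in HR1, with replicate 2 the highest, and 2.92, 4.33 and 1.12 and 2.14, 2.51 and 1.02 CPM in LM1. *Col6a1* fell from 7554, 3337 and 4779 to 2308, 2648 and 2219 CPM. *Col5a3* was the member that rose, from 13.4, 39.2 and 5.76 to 114, 112 and 69.5 CPM.

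Matrix proteases and their inhibitors changed in both directions. Of 29 proteases and inhibitors, 8 were called lower and 4 higher (13.8% higher and 27.6% lower beside 16.7% and 18.7% of all genes, and 8 higher and 11 lower without HR1 replicate 1), with a median of −0.23. *Mmp2*, a gelatinase, had 2233, 658 and 511 CPM in HR1 and 30.3, 30.1 and 35.1 CPM in LM1 (log2 fold change −5.15, standard error 0.61, edgeR adjusted p = 5.9e-04). *Mmp3* and *Mmp13*, a stromelysin and a collagenase, had 252, 575 and 73.4 and 34.9, 129 and 464 CPM in HR1 and 3.05, 3.92 and 6.25 and 2.37, 1.95 and 3.71 CPM in LM1. The HR1 tumours differed several-fold among themselves in these genes, and all stayed above LM1. The inhibitor gene *Timp2* fell from 2658, 1549 and 1429 to 561, 621 and 621 CPM. The protease inhibitor genes *Slpi* and *Serpine2* rose, *Slpi* from 15.4, 1.55 and 3.53 to 116, 100.1 and 115 CPM and *Serpine2* from 0.465, 9.73 and 3.96 to 31.1, 34.2 and 39.0 CPM, as did *Adam12* (2.58) and *Adamts1* (1.69).

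Matrix receptors and laminins changed in both directions. Of 27 integrin and laminin genes, 9 were called lower and 5 higher (18.5% higher and 33.3% lower beside 16.7% and 18.7% of all genes, and 6 higher and 16 lower without HR1 replicate 1), with a median of −1.14. *Itgb5*, a subunit of vitronectin receptors, had 193, 504 and 486 CPM in HR1 and 46.7, 45.6 and 47.0 CPM in LM1 (log2 fold change −3.09, standard error 0.33, edgeR adjusted p = 3.6e-04). *Itgb3* and *Itgb4* had 0.964, 41.7 and 11.4 and 3.62, 87.1 and 7.39 CPM in HR1, with replicate 2 highest, and 0.588, 0.974 and 1.32 and 2.52, 1.65 and 1.75 CPM in LM1, so that *Itgb3* in HR1 replicate 1 overlapped with LM1. *Itga7* and *Itga6*, which pair with beta 1 to bind laminin, rose by 2.17 and 1.16, and *Itgb6*, which activates latent TGF-beta, by 2.18. *Itgb1*, the common beta subunit, was not called. *Lama3*, a laminin chain of epithelial basement membrane, was at 1.56 and the leukocyte integrin gene *Itgb7* at −4.56, where HR1 replicate 1 (1.23 CPM) overlapped with LM1 (0.924, 0.838 and 1.42 CPM).

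Of 31 chemokine and cytokine genes tested, 11 were called higher and 4 lower (35.5% higher and 12.9% lower beside 16.7% and 18.7% of all genes, and 15 higher and 6 lower without HR1 replicate 1), with a median of 1.12. *Cxcl9*, an interferon-gamma induced chemokine that attracts T cells, had 14.0, 1.44 and 1.13 CPM in HR1 and 190.4, 168 and 169 CPM in LM1 (log2 fold change 5.01, standard error 0.92, edgeR adjusted p = 0.00396). The neutrophil attractant *Cxcl1* rose from 14.0, 9.37 and 8.65 to 121, 189 and 79.8 CPM, and the monocyte attractant *Ccl7* from 7.12, 23.7 and 13.0 to 128, 127 and 120.4 CPM. *Csf3*, which encodes G-CSF, had 1 count in HR1 and 3.40, 4.60 and 3.23 CPM in LM1. *Csf1*, the macrophage growth factor, rose by 1.12 on the log2 scale. *Cx3cl1*, *Cxcl16*, *Cxcl15* and *Ccl28* were lower, *Cx3cl1* with 65.6, 39.3 and 63.6 CPM in HR1 and 13.9, 15.5 and 14.9 CPM in LM1.

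Neurotrophins and GDNF ligands signal through the receptors NGFR, NTRK, RET and GFRA in neurons and neural crest. Of 13 tested, 5 were called higher and 4 lower (38.5% higher and 30.8% lower beside 16.7% and 18.7% of all genes, and 5 higher and 5 lower without HR1 replicate 1). *Ngfr* had 0.299, 0.158 and 0.129 CPM in HR1 and 50.1, 56.8 and 50.0 CPM in LM1 (log2 fold change 8.10, standard error 0.40, edgeR adjusted p = 2.4e-05). *Ret*, the receptor tyrosine kinase of GDNF, rose from 0.0332, 0.923 and 0.360 to 19.2, 20.1 and 16.4 CPM and *Gdnf* from 40.0, 32.6 and 50.9 to 159, 194 and 136 CPM. Ligand and kinase were thus higher together, while the co-receptor gene *Gfra1* was lower, with 28.4, 4.50 and 2.08 CPM in HR1 and 1.37, 1.72 and 1.37 CPM in LM1. *Sort1*, *Ntrk2* and *Bdnf* were lower as well, *Ntrk2* with 0.0665, 38.3 and 0.335 CPM in HR1 and 0.294, 0.204 and 0.178 CPM in LM1, so that its call rests on HR1 replicate 2.

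Other signalling lists held members called in both directions, beside 35.5% called of all genes. The fit without HR1 replicate 1 called 26.9% of all genes higher and 26.0% lower. In the TGF-beta, BMP and GDF pathway 5 of 39 were called higher and 10 lower (12.8% higher and 25.6% lower beside 16.7% and 18.7% of all genes, and 7 higher and 11 lower without HR1 replicate 1). The antagonist genes *Fst* and *Nog* rose, *Fst* from 112, 46.6 and 86.0 to 463, 462 and 461 CPM, and the ligand gene *Tgfb1* and the target gene *Id3* fell, *Id3* from 801, 161 and 428 to 72.5, 66.4 and 77.2 CPM. The joint ligand gene *Gdf5* was at 2.49 and the BMP receptor gene *Bmpr1b* at −2.03. In the Wnt pathway 8 of 43 were called higher and 5 lower (18.6% higher and 11.6% lower beside 16.7% and 18.7% of all genes, and 17 higher and 9 lower without HR1 replicate 1). The feedback and target genes *Axin2* and *Lef1* rose by 1.43 and 1.39, and the receptor gene *Fzd7* by 1.37. The ligand genes diverged, *Wnt6* rising from 0.499, 5.25 and 5.82 to 23.4, 20.1 and 25.5 CPM and *Wnt4* falling from 11.0, 41.4 and 29.7 to 0.126, 0.204 and 0.584 CPM. Another ligand gene, *Wnt5b*, and the WNT5A receptor gene *Ror1* were at 1.73 and 1.71, against −5.64 for the ligand gene *Wnt2b* and −2.78 for *Nkd2*, an inhibitor of the pathway. In the Notch pathway 3 of 22 were called higher, *Jag2*, *Notch1* and *Notch2*, and 2 lower, *Jag1* and *Mfng* (13.6% higher and 9.09% lower beside 16.7% and 18.7% of all genes, and 5 higher and 5 lower without HR1 replicate 1).

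The PI3K pathway, activated by mutation in both models, had 7 of 31 members called higher (22.6%, beside 16.7% of all genes) and 2 lower (6.45%, beside 18.7%). Without HR1 replicate 1 there were 10 higher and 6 lower, beside 26.9% and 26.0% of all genes in that fit. *Pik3ca* itself rose from 73.4, 62.1 and 88.7 to 150.2, 184 and 131 CPM, and whether reads of the transgene are counted there was not tested. *Foxo3*, a forkhead factor that AKT inhibits, rose by 2.01, and the adaptor genes *Irs1* and *Irs2* by 1.51 and 1.67. The 2 called lower were *Foxo4* at −1.10 and the regulatory subunit gene *Pik3r2* at −1.02. *Akt1*, *Akt2* and *Mtor* were not called.

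Hypoxia genes were higher for some members only. The hypoxia-inducible factors switch on glycolysis, angiogenesis and feedback genes when oxygen is low. Of 34 HIF targets 10 were called higher and 3 lower (29.4% higher and 8.82% lower beside 16.7% and 18.7% of all genes), with a median of 0.26. *Ddit4*, an inhibitor of mTORC1, had 41.4, 86.7 and 123 CPM in HR1 and 355, 594 and 356 CPM in LM1 (log2 fold change 2.38, standard error 0.38, edgeR adjusted p = 0.00208). *Egln3*, an oxygen-sensing prolyl hydroxylase, rose from 76.3, 195 and 216 to 434, 492 and 492 CPM. *Adm*, a vasodilator peptide gene, was at 1.39. The 3 called lower were *Slc2a3*, a glucose transporter, *Lox*, a collagen cross-linker, and *Mxi1*, a MYC antagonist, at −5.36, −2.61 and −0.82. *Slc2a3* had 1.03, 123 and 4.53 CPM in HR1 and 0.651, 1.02 and 1.45 CPM in LM1, so that its groups overlapped and HR1 replicate 2 carried the difference. Core glycolytic targets such as *Pgk1*, *Ldha* and *Slc2a1* were not called. HR1 replicate 1 was the lowest of the 6 tumours for *Ddit4*, *Egln3*, *Vegfa* and *Ero1l* alike, and without it 13 members were called higher and 10 lower and the median was 0.04. The balance of this list thus depended on that tumour.

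Protein folding genes showed no stable direction. Of 29 genes of the unfolded protein response 2 were called higher, *Ero1l* and the sensor gene *Ern1*, and 7 lower (24.1%, beside 18.7% of all genes). Without HR1 replicate 1 there were 7 in each direction, and without LM1 replicate 1 only 2 members were called. The lower ones included *Pdia3*, *Pdia4* and *Pdia6*, disulphide isomerases that pass oxidizing equivalents on from ERO1, at −0.58, −0.59 and −0.55, and the chaperone gene *Canx* at −0.70. The largest decreases of the list were those of *Sdf2l1* (−1.11), a partner of HSPA5, and the stress sensor gene *Atf6* (−0.85). *Hspa5*, *Ddit3* and *Atf4*, usual markers of endoplasmic reticulum stress, were not called.

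Several detoxifying enzymes were lower and metallothioneins higher. Of 27 glutathione and NRF2 target genes 9 were called lower and 3 higher (11.1% higher and 33.3% lower beside 16.7% and 18.7% of all genes, and 6 higher and 10 lower without HR1 replicate 1), with a median of −0.54. *Gstm1*, a glutathione transferase, had 965, 239.8 and 219 CPM in HR1 and 35.3, 26.5 and 33.8 CPM in LM1, and *Nqo1*, a quinone reductase and NRF2 target, fell from 103, 142 and 127 to 31.2, 29.8 and 36.4 CPM. *Gsta4* fell from 12.6, 31.6 and 14.0 to 0.0840, 0.0680 and 0.203 CPM. Other transferase genes were at −7.40 for *Gsta3*, −5.12 for *Gsta1* and 1.49 for *Gstt1*, and the *Gsta* genes are similar copies whose reads are uncertain. The metal binding genes *Mt1* and *Mt2* rose, *Mt2* from 93.6, 96.8 and 74.1 to 528, 408 and 443 CPM. In cholesterol and fatty acid synthesis 3 of 25 were called higher and 7 lower (12% higher and 28% lower beside 16.7% and 18.7% of all genes, and 3 higher and 10 lower without HR1 replicate 1), with *Fasn*, the fatty acid synthase gene, rising by 1.41 and the desaturase gene *Scd1* at −1.90. *Acly*, which makes cytosolic acetyl-CoA, was at 0.51, the carboxylase gene *Acacb* at −2.01 and the lipogenic regulator gene *Srebf1* at −1.17.

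Lineage lists held members called in both directions. The fit without HR1 replicate 1 called 26.9% of all genes higher and 26.0% lower. Of 17 basal and myoepithelial genes 6 were called higher and 5 lower (35.3% higher and 29.4% lower beside 16.7% and 18.7% of all genes, and 8 higher and 6 lower without HR1 replicate 1). The stem cell receptor gene *Lgr5* rose from 0.0997, 0.113 and 0.0772 to 7.48, 8.04 and 7.93 CPM, and the endothelial protein C receptor gene *Procr* from 10.3, 24.7 and 23.9 to 79.4, 73.1 and 83.6 CPM. *Trp63*, which encodes the basal factor p63, fell from 7.85, 13.0 and 12.4 to 1.53, 1.34 and 1.37 CPM, and the contractile gene *Acta2* from 95.7, 606 and 327 to 71.7, 60.9 and 69.5 CPM. The hemidesmosome collagen gene *Col17a1* was at 3.07 and *Tagln*, a smooth muscle marker, at −3.08. Of 12 luminal genes *Areg*, an EGFR ligand, rose from 0.665, 3.38 and 5.94 to 62.9, 45.2 and 38.0 CPM and *Epcam* fell, and 10 were not called (8.33% higher and 8.33% lower beside 16.7% and 18.7% of all genes, and 4 higher and 1 lower without HR1 replicate 1). Of 20 genes of epithelial-mesenchymal transition 2 rose, *Tnc* and *Prrx1*, and 5 fell (10% higher and 25% lower beside 16.7% and 18.7% of all genes, and 6 higher and 5 lower without HR1 replicate 1), while *Vim*, *Snai1*, *Zeb1* and *Twist1* were not called. Without HR1 replicate 1 *Prrx1* lost the call (edgeR adjusted p = 0.0502). Log2 fold changes were 1.40 for the matrix gene *Tnc*, 0.79 and −1.78 for the paired homeobox genes *Prrx1* and *Prrx2*, and −3.05 for *Nt5e*, which makes extracellular adenosine.

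Hox and axon guidance genes held members called in both directions. Of 18 Hox genes 3 were called higher and 6 lower (16.7% higher and 33.3% lower beside 16.7% and 18.7% of all genes, and 4 higher and 7 lower without HR1 replicate 1). *Hoxb13* and *Hoxb9*, posterior genes of the *Hoxb* cluster, had 229.8, 9.59 and 16.3 and 257, 8.35 and 5.56 CPM in HR1, highest in replicate 1, and 0.462, 0.294 and 0.457 and 1.26, 1.06 and 0.965 CPM in LM1. *Hoxa7* rose from 0.399, 1.26 and 1.16 to 11.3, 11.1 and 10.5 CPM. *Hoxd10* and *Hoxd8* were at 2.70 and 0.71, *Hoxb8* was at −6.82, and *Hoxc8* had 7.22, 0.360 and 1.29 CPM in HR1 and 2 counts in LM1. Of 40 axon guidance genes 4 were called higher and 12 lower (10% higher and 30% lower beside 16.7% and 18.7% of all genes, and 9 higher and 14 lower without HR1 replicate 1). The netrin gene *Ntn4* fell from 13.8, 36.0 and 30.2 to 1.24, 1.31 and 1.27 CPM, the repellent gene *Sema3a* from 2.63, 15.0 and 28.4 to 0.462, 0.385 and 0.254 CPM, and the receptor gene *Plxna2* rose from 72.7, 23.3 and 18.1 to 139.6, 181 and 113 CPM. The receptor genes *Plxnb2* and *Nrp1* were at 0.90 and 0.47, and the repellent gene *Slit3* at −4.07, with HR1 replicate 1 (0.632 CPM) at the LM1 level (1.32, 1.22 and 0.610 CPM).

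**Figure D4:**
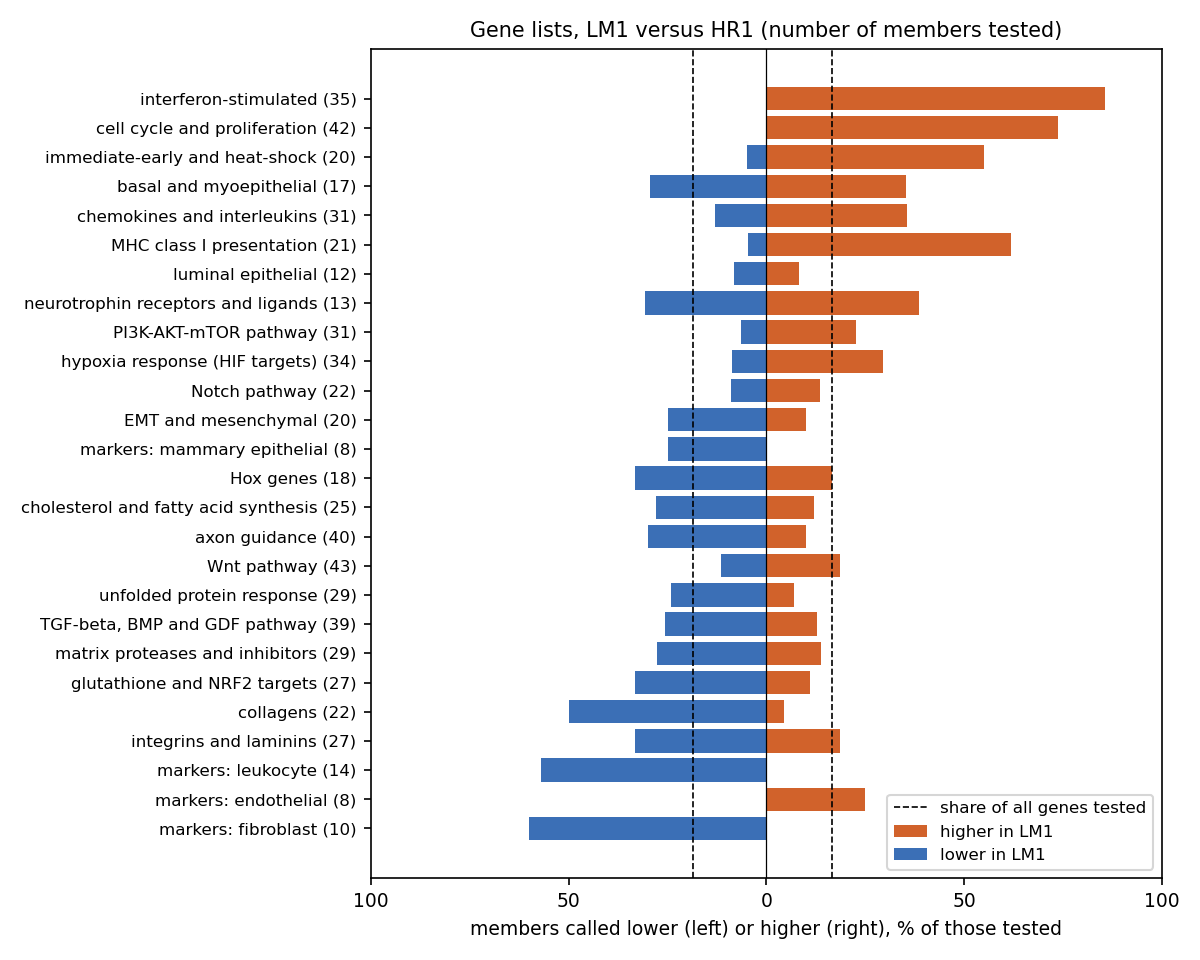
Share of the tested members of each gene list called higher (orange, right) or lower (blue, left) in LM1, in percent, for lists with at least 8 members tested, ordered by median log2 fold change; dashed lines mark the shares of all genes, 16.7% higher and 18.7% lower. Interferon-stimulated and cell cycle genes have no member called lower, and leukocyte and fibroblast markers none called higher.

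The list counts moved with single LM1 tumours too. They are to be read beside the calls over all genes, which fell from 4994 as well. Those were 3121, 3278 and 3728 without LM1 replicates 1, 2 and 3. With 1 LM1 tumour left out, between 28 and 29 interferon-stimulated, 26 cell cycle whichever tumour it was, between 11 and 12 MHC class I and between 7 and 10 collagen genes were called. Other lists lost more. The hypoxia list went from 13 called to between 6 and 7, integrins and laminins from 14 to between 7 and 8 and the unfolded protein response from 9 to between 2 and 5. The TGF-beta list went from 15 to between 6 and 9, axon guidance from 16 to between 6 and 9, neurotrophin genes from 9 to 5 and the Notch list from 5 to between 2 and 4. Basal genes went from 11 to between 7 and 9 and genes of epithelial-mesenchymal transition from 7 to between 4 and 6. Without HR1 replicate 2 integrins and laminins fell to 9 and the Notch list rose to 8. The luminal list went from 2 to 4 without HR1 replicate 2, 6 without HR1 replicate 3 and 1 without LM1 replicate 2.

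Markers of other cells that a GFP sort could hold moved between the groups. Macrophages and other leukocytes share the tumour with the sorted cells, and of 14 leukocyte markers 0 were called higher and 8 lower in LM1 (57.1%, beside 18.7% of all genes), with a median of −1.50 (7 lower without HR1 replicate 1). The number called was 4 without HR1 replicate 2, 13 without HR1 replicate 3 and between 0 and 2 with 1 LM1 tumour left out. Their summed level was 889, 1213 and 297 CPM in HR1 and 283, 261 and 269 CPM in LM1, so HR1 replicate 3 was near LM1. The largest decreases were those of *C1qc* (−2.17), *Adgre1* (−2.03), which encodes the macrophage antigen F4/80, and *Lyz2* (−1.99). *C1qa*, a complement gene of macrophages, had 169.9, 217 and 43.3 CPM in HR1 and 41.9, 34.7 and 35.5 CPM in LM1, and *Ptprc*, the pan-leukocyte marker CD45, had 7.91, 11.3 and 2.29 and 4.18, 4.89 and 2.46 CPM and was not called. The part of leukocytes in the other results was not tested. In bulk samples fewer cells of a type and less RNA per cell cannot be told apart.

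Of 10 fibroblast markers 6 were called lower (60%, beside 18.7% of all genes) and 0 higher, with a summed level of 35911, 22601 and 23292 CPM in HR1 and 11772, 14048 and 10680.1 CPM in LM1. *Pdgfra* had 361, 180.2 and 106 CPM in HR1 and 42.7, 45.9 and 40.2 CPM in LM1. *Pi16*, a marker of adventitial fibroblasts, was at −5.40. *Dcn*, the proteoglycan decorin, had 17605, 432 and 329 CPM in HR1, with replicate 1 far above the others, and 562, 569 and 645 CPM in LM1. The collagen and protease genes called lower moved with these markers, 3 of which are collagens themselves, and the part of fibroblasts in those results was not tested. Of 8 endothelial markers 2 were called higher (25%, beside 16.7% of all genes) and 0 lower. The median log2 fold change of this list was −1.62, so the 2 that rose went against most of it. *Cdh5* had 3.23, 13.4 and 1.88 CPM in HR1 and 147, 190.3 and 136 CPM in LM1, and *Kdr* 0.432, 1.73 and 1.13 and 22.3, 34.0 and 25.1 CPM. The other 6 were not called (3 of the 8 were lower without HR1 replicate 1, and 6 of the 8 were called without HR1 replicate 3), *Pecam1* at 2.23, 6.42 and 1.18 CPM in HR1 and 0.903, 1.25 and 0.660 CPM in LM1.

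Of 8 mammary epithelial markers 0 were called higher and 2 lower, *Trp63* and *Epcam* (25% lower, beside 18.7% of all genes). Without HR1 replicate 1 there were 3 in each direction, beside 26.9% higher and 26.0% lower of all genes. The number called was 5 without HR1 replicate 3 and 1 without LM1 replicate 2. *Krt14*, a basal keratin gene, had 1.56, 31.4 and 109 CPM in HR1 and 175, 152 and 175 CPM in LM1 and was not called, with HR1 replicate 1 far under the other tumours. The adipocyte, Schwann cell, muscle and erythroid markers tested were too few for a share to set beside the 35.5% of all genes called. In either direction 0 of 2, 2 of 3, 1 of 2 and 0 of 2 were called. The myelin gene *Mbp* at −1.89 and the muscle gene *Mylpf* at 1.70 were among them. Without HR1 replicate 3 both erythroid markers and 1 adipocyte marker were called, and without LM1 replicate 2 or 3 no Schwann cell marker was. The summed erythroid level was 166, 78.4 and 19.0 CPM in HR1 and 44.9, 13.7 and 17.2 CPM in LM1. Single tumours set several of these sums, as *S100b* in HR1 replicate 1 did for Schwann cells.

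**Figure D5:**
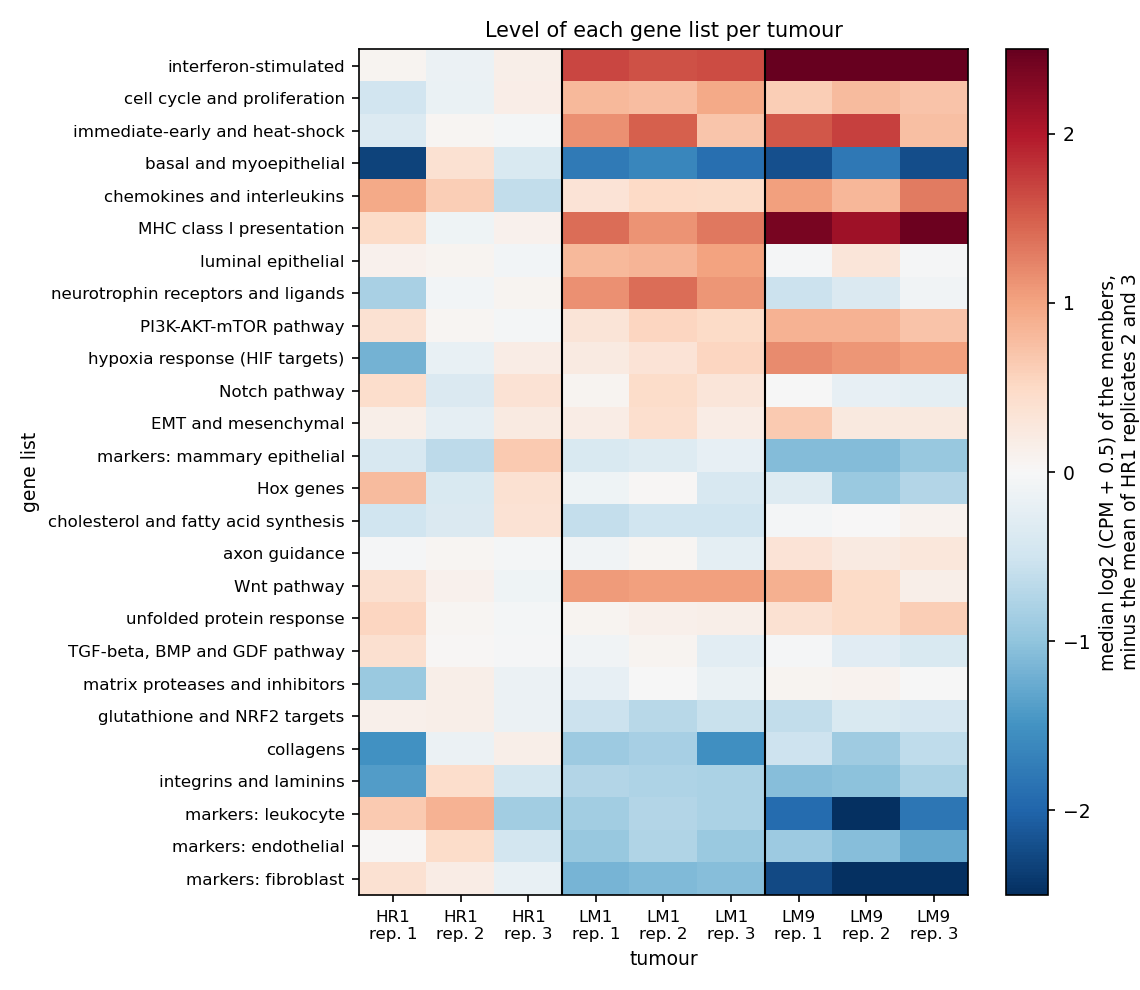
Median log2 (CPM + 0.5) of the members of each gene list in each tumour, as the difference from the mean of HR1 replicates 2 and 3 (red higher, blue lower), in the same order of lists. The interferon-stimulated list lies between 5.12 and 5.41 in HR1 and between 6.85 and 6.93 in LM1 before that difference is taken; a median of levels can move against the median of the changes, as for basal and myoepithelial genes, where the levels are lower in LM1 than in HR1 replicates 2 and 3 and the median change is 1.16.

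LM9, another line from a lung metastasis of HR1 cells, gave a test of which LM1 changes differed between metastatic lines. LM1 and LM9 share the HR1 tumours as controls, so LM9 was set against LM1 directly, where 22.0% of all genes were called. The spread of each gene in this test was estimated over all 9 tumours, so the spread among HR1 tumours enters it too. Of the 4994 genes called between LM1 and HR1, 1517 (30.4%) also differed between LM9 and LM1. This number was 3791 without HR1 replicate 1, and 550, 903 and 685 without LM1 replicates 1, 2 and 3. Of the 12 largest LM1 increases 9 were of this kind, 8 lower in LM9 and *Lgi2* higher. *Cntn2* had 0.0644, 0 and 0 CPM in LM9 against 24.9, 34.7 and 21.2 CPM in LM1, *Lrat* 0, 0.0458 and 0 against 10.6, 9.31 and 9.65 CPM and *Il24* 0.622, 0.572 and 0.248 against 36.1, 27.2 and 35.6 CPM. *Egr4*, *Vsig8*, *Tgm5* and *Psg18* were at or under 0.275 CPM in every LM9 tumour. *Kcne4*, *Scml2* and *Gpat2* had LM9 levels of 187, 163 and 174, 3.07, 1.90 and 3.15 and 5.77, 6.29 and 6.57 CPM and did not pass the test between LM9 and LM1. For *Kcne4* and *Gpat2* every LM9 tumour was still above every LM1 tumour. *Kcne4* had 64.8, 77.3 and 77.3 CPM in LM1, a log2 fold change of 1.26 (edgeR adjusted p = 0.0653). Failing the test is thus no sign of equal levels.

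Some genes that rose in LM1 were near 0 in LM9. *Adgrg2*, an orphan adhesion receptor on the X chromosome, had 0.632, 1.71 and 1.85 CPM in HR1, 26.9, 32.6 and 27.0 CPM in LM1 and 0.107, 0.0458 and 0.0450 CPM in LM9. *Kcnj8*, a subunit of ATP-sensitive potassium channels, had 1.13, 0.946 and 0.154, 35.8, 26.7 and 33.6 and 0.107, 0.0458 and 0.0225 CPM in the same order of models. *Raver2* had 0.499, 1.19 and 0 CPM in HR1, 15.9, 17.8 and 16.6 CPM in LM1 and at most 0.0687 CPM in LM9. *Mal2*, a protein of apical transport, had 0, 0.0901 and 0.0515 CPM in HR1, 4.43, 3.85 and 4.34 CPM in LM1 and 0 counts in LM9, and with so few counts in HR1 a fall in LM9 is not measured for it.

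Among the large decreases, *Gdf6*, *Gsta4* and *Prex2*, an exchange factor of Rac, were at 0 or 1 counts in each LM9 tumour. They were called lower in LM9 than in LM1. In LM1 they were themselves at or under 0.203 CPM, so the size of a further fall is not measured. *C1qtnf5* and *Ddit4l* were higher in LM9 than in LM1. *C1qtnf5*, whose counts equal those of the overlapping gene *Mfrp* in every tumour, had 46.7, 38.7 and 76.6 CPM in HR1, 0.483, 0.294 and 0.406 CPM in LM1 and 8.97, 5.91 and 7.56 CPM in LM9. *Ddit4l* had 77.3, 2.84 and 1.78 CPM in HR1, 0.189, 0.204 and 0.102 CPM in LM1 and 5.07, 8.79 and 4.12 CPM in LM9, so that LM9 was above HR1 replicates 2 and 3. By list, 29 of the 30 interferon-stimulated genes called in LM1 were higher again in LM9 than in LM1, as were 9 of the 13 MHC class I and 5 of the 10 hypoxia genes called higher in LM1. Of the 31 cell cycle genes called, 8 were lower in LM9 than in LM1 and 2 higher. These list counts stand beside 30.4% of all genes called between LM1 and HR1 that differed between LM9 and LM1. That share covers both directions and was not split by direction. The cell cycle count lies near it.

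The changes were not spread evenly over the genome. By chromosome the median log2 fold change ran from −0.42 on chromosome 18 (374 genes, 36.9% called lower and 6.68% higher) to 0.24 on chromosome 4 (878 genes, 10.4% lower and 25.4% higher), the chromosome of *Nfib*. Chromosomes 16, 17 and 6 also lay low, at −0.34, −0.33 and −0.26, and chromosomes 15, 9 and 13 high, at 0.21, 0.15 and 0.14. Without HR1 replicate 1 the medians of chromosomes 18 and 4 were −0.33 and 0.37, and chromosome 17 was the lowest at −0.42. In LM9 the medians against HR1 were −0.04 and 0.09. Genes of 1 chromosome are not independent, and no test was made; DNA copy number was not measured here.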

How the data were processed

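RNA from GFP-sorted mouse mammary tumours was sequenced by the authors as single-end reads of stranded mRNA libraries and aligned to mm10 with STAR. The deposited values are raw counts per gene, whole numbers that the authors obtained by counting read ends over the exons of each gene with QuasR. The strand setting and low-count filter are not given in the sources used here. Each of the 9 tables lists 14108 genes by Entrez number, of which 14085 were given a symbol from RefSeq (GRCm38.p6).

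Groups came from the sample titles. The counts of all 9 tumours (HR1, LM1 and LM9, 3 each) were fitted in edgeR 4.0.16 (R 4.3.3) with TMM factors and filterByExpr, which left 14086 genes. LM1 minus HR1 was tested by the robust quasi-likelihood F-test with Benjamini-Hochberg adjustment over all genes and a threshold of 0.05. Genes that passed are called higher or lower. LM9 minus LM1 was tested in the same fit. Single values were also tested by a two-sided exact permutation test of 3 against 3 tumours. The study used limma-voom, which was an alternative here (limma 3.58.1), as were DESeq2 1.42.0, treat, other size factors and filters, the 6 tumours alone, the replicate number as a block and leaving out each tumour. The fits were tested on simulated data with known changes, where DESeq2 made more false calls than its threshold allows. The other fits stayed near or under it. The simulation gave every tumour the same spread per gene and held no deviating tumour. It cannot show how the fits behave with HR1 tumours as far apart as these. Intervals and floors cover counting error only, and reads without molecular identifiers are not independent molecules.

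The members, the 31 gene lists and the tests were chosen with earlier results of these data known, and no test was made over a list. Of 727 list entries, 651 were found and 76 are not analysed here. Some genes that the naming rule selects are not reported here. Genes named in the text are those the study names, the 12 largest increases and 12 largest decreases among called genes averaging 1 CPM or more whose groups did not overlap, the 8 most counted called genes changed at least 2-fold, up to 3 called members in each direction per list with at least 1 CPM, other list members given by their value, the 8 genes highest and 8 lowest in HR1 replicate 1 over the other HR1 tumours among genes averaging 5 CPM or more, and genes whose change differed in LM9 (4 opposite, 6 in each direction). Levels on the log2 scale used CPM plus 0.5. Counts of 7 genes equal those of another gene in all tumours.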

Additional observations from a re-analysis of the deposited data

Results flagged for a closer look

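For 76 genes named in the text, the change in LM9 differed from the change in LM1 by edgeR's test of LM9 against LM1 (adjusted p under 0.05), and the values here are log2 fold changes of LM9 minus LM1. Both changes were measured against the same HR1 tumours. Where a gene is at or near 0 in LM9 or LM1, the fitted value depends on the prior count and is no measure of size.

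Higher in LM1 than in HR1, and higher again in LM9 than in LM1, were *Ero1a* (2.97), *Mx1* (2.88), *Rsad2* (2.54), *Lgi2* (2.51), *Adm* (2.45), *Oas2* (2.12), *Ifit1* (1.87), *Irf7* (1.86) and *Ndrg1* (1.79). To these were added *Oas1a* (1.53), *Vegfa* (1.49), *Ern1* (1.47), *Cxcl1* (1.35), *H2-D1* (1.31), *Isg15* (1.27), *Egr2* (1.26), *H2-Q6* (1.26) and *Irs2* (1.26). Further genes of this kind were *Adamts1* (1.25), *Procr* (1.20), *Tap1* (1.18), *H2-K1* (1.15), *Ngfr* (1.14), *Ly6e* (1.10), *Irf9* (1.02), *H2-Q7* (1.01) and *B2m* (0.99). Last came *Notch1* (0.96) and *Zbp1* (0.90).

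Higher in LM1 than in HR1, but lower in LM9 than in LM1, were *Mal2* (−10.47), *Cntn2* (−10.07), *Lrat* (−9.11), *Kcnj8* (−9.01), *Raver2* (−9.00), *Adgrg2* (−8.70), *Vsig8* (−6.71), *Il24* (−6.09) and *Psg18* (−5.62). To these were added *Egr4* (−5.14), *Tgm5* (−5.02), *Lgr5* (−4.64), *Ret* (−4.36), *Gm773* (−3.13), *Serpine2* (−2.93), *Nog* (−2.01), *Lef1* (−1.85) and *Mcm5* (−1.66). Further genes of this kind were *Adam12* (−1.40), *Hoxa7* (−1.23), *Mylpf* (−1.07) and *Fzd7* (−0.96).

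Lower in LM1 than in HR1, but higher in LM9 than in LM1, were *Ddit4l* (5.15), *Itgb7* (4.43), *Mfrp* (4.23), *C1qtnf5* (4.23), *Mmp2* (3.10), *Acacb* (2.47), *Fn1* (1.87), *Mxi1* (1.74) and *Bdnf* (1.68). To these were added *Psap* (1.43), *Scd1* (1.31), *Foxo4* (0.95), *Atf6* (0.86) and *Jund* (0.86).

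Lower in LM1 than in HR1, and lower again in LM9, were *Cxcl15* (−8.41), *Acta2* (−5.94), *Gsta4* (−5.33), *Wnt4* (−3.59), *Gdf6* (−3.57), *Prex2* (−3.31), *Gfra1* (−2.93), *Sort1* (−2.35) and *C1qa* (−1.82). To these were added *C1qc* (−1.77) and *Nqo1* (−0.68).

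No tumour group had 4 or more tumours, so single tumours were not tested as outliers, and HR1 replicate 1 is described by its values only.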

How the results depend on the processing

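The number of genes called between LM1 and HR1 was within 1.5 times the main 4994 by RLE size factors (5009), library size only (5003), no filter on low counts (5007), a minimum of 1 CPM in 3 tumours or more (4617), DESeq2 (5855, a tool that made too many false calls on simulated data) and limma-voom (5076). It was 3086 with a minimum of a 2-fold change, 3010 when only the 6 LM1 and HR1 tumours were fitted, and 782 (555 higher, 227 lower, 71.0% higher beside 47.2% in the main result) by limma-voom with treat. Leaving out 1 tumour gave 3121 to 7453 genes, and 550 to 3791 genes that also differed between LM9 and LM1 (a range chosen after the data were seen). The replicate number as a block gave 4204 genes and a log2 fold change of 2.52 for *Nfib*. The numbers were not taken as pairs: deviations from the group means of same-numbered HR1 and LM1 tumours correlated at 0.063, 0.050 and −0.025. *Nfib* was 0.073 to 5.10 when 1 tumour was left out, past the threshold only without HR1 replicate 1, and 3.13 by limma-voom, and DESeq2 gave it no adjusted p. HR1 replicate 1 was at or past the midpoint between HR1 and LM1 for 41.3% of genes, and 38.3% when only genes changed at least 2-fold were used (chosen after the data were seen).

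Of 251 genes named in the text, 123 lost the call in at least 1 of 16 alternatives, 122 of them by treat, 50 without LM1 replicate 1 and 2 without HR1 replicate 1. The sign of the log2 fold change turned with a tumour left out, over these ranges, for *4930550L24Rik* (−7.08 to 2.02), *Akt1* (−0.34 to 0.0063), *Cdh1* (−0.14 to 0.49), *Cdkn1a* (−0.42 to 0.43), *Col2a1* (−7.85 to 0.77), *Cplx2* (−0.64 to 6.48), *Crym* (−7.96 to 2.82), *Dcn* (−3.93 to 0.64), *Ddit3* (−0.071 to 0.44), *Dusp1* (−0.069 to 0.48), *Il1rl1* (−0.70 to 1.37), *Lingo1* (−1.22 to 5.84), *Matn4* (−3.63 to 2.61), *Ntrk2* (−6.39 to 0.13), *Pgk1* (−0.45 to 0.28), *S100b* (−6.59 to 1.73), *Slc2a1* (−0.29 to 0.56) and *Twist1* (−0.11 to 0.34). It also turned by limma-voom, with and without treat for *Cplx2* (4.62), *Il1rl1* (1.88), *Lingo1* (3.87), *Matn4* (0.50), *Msln* (1.13) and *Wnt7b* (0.28). It also turned with the replicate block for *Cplx2* (2.80), *Il1rl1* (0.57) and *Lingo1* (2.10). It also turned with library size only for *Cplx2* (0.10). Of these, *Col2a1* and *Ntrk2* were called in the main result. The cause was not tested. Each group has 3 tumours, and with counts of 3 or fewer per library a gene has no measurable fold change.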

Other observations

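*Xist*, the non-coding RNA that coats the inactive X chromosome, was among the genes that separated the models and was chosen after its values were seen. It had 38.5, 25.8 and 21.7 CPM in HR1 and 0.399, 0.249 and 0 CPM in LM1, without overlap (log2 fold change −7.00, standard error 0.93, edgeR adjusted p = 0.00101). In LM9 it had 1.33, 0.343 and 0.720 CPM. The 447 genes of the X chromosome had a median log2 fold change of −0.01, with 15.0% called higher and 15.0% lower in LM1.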
